A study of Drosophila melanogaster with 6 samples.

Results

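The ribosomal protein genes of the cytosolic ribosome were followed in RNA-seq libraries of Drosophila lymph glands. They were taken as all genes whose FlyBase symbol begins with RpL, RpS or RpLP followed by a digit, with duplicated copies and like-named relatives kept, plus sta, which encodes the fly homologue of the small subunit protein RPSA. The rule used no expression value and gave 93 of the 17807 genes in the tables, 54 for the large subunit and 39 for the small subunit. By the stem of their symbols they form 79 families, 47 of the large and 32 of the small subunit. Of these families, 66 hold 1 gene, and 13 hold 27 genes in all and are called paralog sets here. Whole lymph glands, the larval organ in which blood cells form, came from larvae labelled wild-type and at the third instar stage. The labels name 2 experimenters with 3 libraries each, called set B and set A here, and nothing else in them separates the sets. All larvae carried the background given as BL-30140 crossed to w1118, and were raised at 25 °C on semi-defined medium. The design text describes the 6 libraries as biological replicates made from 200 ng of RNA each, and the labels do not say how many larvae were pooled.

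A ribosome has a large and a small subunit, each an assembly of ribosomal RNA with many proteins that are mostly present in 1 copy. Each protein is usually encoded by a single gene in the fly, and loss of 1 copy of many of these genes gives the Minute phenotype of slow growth and short, thin bristles. The genes are transcribed in every growing cell, and their mRNAs start with a pyrimidine tract through which the TOR pathway controls their translation. In this organ, fly mutants of RpS6 and RpS21 are known for overgrown lymph glands. Some proteins also exist in a second form, and for several of these the fly gene is known from the germ line.

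The libraries held 19627317, 18689689 and 24804853 expected counts in replicates 1, 2 and 3 of set B, and 26003822, 22615552 and 20082235 in those of set A. A check for a library deposited in duplicate found none, since the chi-square per degree of freedom, against counting error only, was at least 19.0 for each pair. The 5 markers of lymph gland blood cells were detected in every library, with a summed level of 5436 to 6360.5 TPM in set B and 5713 to 7170.1 TPM in set A. Markers of neighbouring tissues varied more between libraries. Those of the ring gland summed to 1582, 2869 and 1773 TPM in set B and 3053, 1080.2 and 986 TPM in set A, those of the salivary gland to 5319 TPM in replicate 2 of set B and 13.9 to 79.1 TPM elsewhere, those of the fat body to 687 TPM in replicate 3 of set A and 5.97 to 19.4 TPM elsewhere, and those of muscle to 408 to 1494 TPM in set B and 264 to 431 TPM in set A. Of 5 neural markers 1 was detected, and they summed to 2.28 to 24.8 TPM in set B and 1.56 to 2.16 TPM in set A.

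Nearly all ribosomal protein genes were expressed, at levels that only a few other genes reached. A level of at least 1 TPM (a relative abundance corrected for transcript length, with the same sum in every library) in all 6 libraries was called detected. This was the case for 86 of the 93 genes (92.5%), against 7371 of all 17807 genes (41.4%). Mean TPM was at least 1000 for 80 of the genes, 47 of the large and 33 of the small subunit, and for 64 other genes in the tables. Ribosomal protein genes made up 79 of the 100 genes with the highest mean TPM and 41 of the highest 50. Every family had at least 1 gene among these 80, so that the 13 genes below 1000 TPM were all lower copies of a paralog set.

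**Figure D1:**
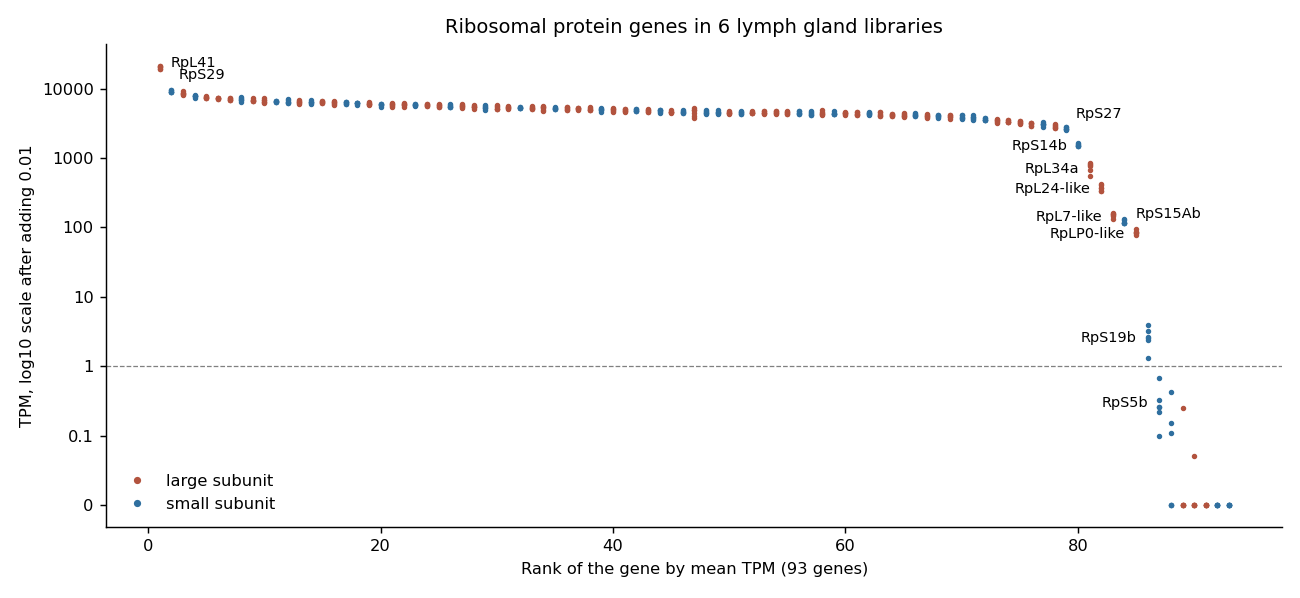
Level of all 93 ribosomal protein genes, ranked by mean TPM. Each point is 1 of the 6 libraries, coloured by subunit, on a log10 scale after adding 0.01 TPM, and the dashed line marks 1 TPM. RpL41 stands above the others, 79 genes form a plateau that ends with RpS14b, and the 13 genes to the right of it spread from RpL34a down to 3 genes at 0 in every library.

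Together the 93 genes held 42.6% ± 1.47 of summed TPM (SD, n = 6). The share was 43.9%, 40.9% and 41.7% in replicates 1, 2 and 3 of set B, and 42.0%, 44.9% and 42.5% in those of set A. Replicate 2 of set A was highest and replicate 2 of set B, which had the highest salivary gland markers and 2869 TPM of ring gland markers, was lowest. The part of these tissues in the share was not tested, and in bulk RNA fewer cells of a type and less RNA per cell cannot be told apart. The sets overlapped, with 42.2% ± 1.52 in set B and 43.1% ± 1.55 in set A (SD, n = 3 each). Genes of the mitochondrial genome held 2.44%, 3.77% and 4.19% of summed TPM in set B and 1.45%, 2.33% and 2.32% in set A. With these genes left out, the share was 43.7% ± 1.23 in set B and 44.0% ± 1.74 in set A. Their part was not tested. Counted in expected counts, which do not correct for length, the share was 18.6% ± 0.760, since these transcripts are short. The 54 large subunit genes held 25.9% ± 0.932 of summed TPM and the 39 small subunit genes 16.7% ± 0.542 (SD, n = 6).

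The large subunit gave the highest level of all. RpL41 (FBgn0066084, chromosome 2R, 24903416 to 24903935 of BDGP6.54) encodes a very short peptide at the interface of the subunits. It had 21298, 19246.5 and 20741 TPM in set B and 19520.5, 21361 and 20403 TPM in set A. The mean was 20428 ± 888 TPM, where the error is the SD over 6 libraries, as it is for the other means over both sets. The sets overlapped. RpL39 (chromosome 2R, 24061853 to 24062431), whose product lines the exit tunnel for the nascent chain, had 8595, 8288 and 8022 TPM in set B and 8604.5, 9225 and 8318 TPM in set A. Its mean was 8509 ± 413 TPM, and its exons share 8 bases with those of RpL12 on the opposite strand. Leaving aside the stalk proteins described next, RpL29 followed at 7260.2 ± 146 TPM, RpL23 at 7077 ± 155 TPM and RpL27A at 6691 ± 349 TPM. RpL29 overlaps CG9752 and RpL23 overlaps inaD on the other strand. The deposited posterior SD of the count, which is above 0 where reads fit several genes, was 0 for both.

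The proteins of the stalk, which recruits the elongation factors to the large subunit, were not at equal levels. The acidic proteins RpLP1 and RpLP2 sit on RpLP0 as dimers. RpLP1 had 7598, 7305 and 7279 TPM in set B and 7351, 7774 and 7554 TPM in set A (mean 7477 ± 197 TPM). RpLP2 had 6984, 6654 and 6743 TPM in set B and 6860.3, 7382 and 6707 TPM in set A (mean 6889 ± 269 TPM). RpLP0, the base of the stalk, had 4575, 4009.5 and 4142 TPM in set B and 4057, 4673 and 4354 TPM in set A (mean 4302 ± 278 TPM). RpLP1 and RpLP2 lay above RpLP0 in all 6 libraries, without overlap. RpL40, which is made as a fusion to ubiquitin, was at 4544 ± 148 TPM. At the low end of the large subunit families with 1 gene stood RpL35A at 3469 ± 189 TPM and RpL17, another tunnel protein, at 2858 ± 151 TPM.

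In the small subunit, RpS29 (chromosome 3R, 9778042 to 9779528), a short zinc-binding protein, was highest. It had 9547, 9025 and 9052 TPM in set B and 8989, 9683 and 9039.5 TPM in set A (mean 9222 ± 308 TPM), and it overlaps the antisense RNA gene asRNA:CR31514. RpS27A (chromosome 2L, 10408352 to 10410456), the other ubiquitin fusion, was at 7760.1 ± 210.2 TPM and overlaps Ip259 on the same strand. RpS25, which is needed for translation from some internal entry sites, was at 7048 ± 389 TPM. The gene sta (chromosome X, 1481797 to 1483413) had 7041, 6399.6 and 6358 TPM in set B and 6319.5, 6791 and 6339 TPM in set A (mean 6541 ± 302 TPM), which placed it in the upper part of the small subunit. Toward the low end of the families with 1 gene were RpS9 at 3827 ± 216 TPM and RpS27 at 2674 ± 112 TPM. RpS27 had 2767, 2640.3 and 2540 TPM in set B and 2645, 2845 and 2606 TPM in set A, so that its highest library stayed below the lowest library of RpS9, at 3531 TPM.

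RpS6 and RpS21, described here for their known part in this organ and not picked by level, were below the median of the families. RpS6, the protein phosphorylated by S6 kinase, had 4554, 4219.6 and 4263 TPM in set B and 4437, 4425 and 4308 TPM in set A. RpS21 had 4633, 4540.2 and 4261 TPM in set B and 4649, 4865 and 4487 TPM in set A. In both genes the sets overlapped.

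Most proteins of the ribosome came from transcripts at similar levels. The 80 genes had a median of 4933 TPM with quartiles of 4401 and 5889.7 TPM, and 74 of them lay between 3000 and 8000 TPM. Over the gene with the highest level in each of the 79 families, the highest mean exceeded the lowest by 7.64-fold, and the 90th percentile exceeded the 10th by 1.83-fold. Over these genes the median was 5103 ± 216 TPM in the large subunit and 4847 ± 154 TPM in the small subunit. The ratio of large to small was 1.07, 1.05 and 1.02 in set B and 1.06, 1.07 and 1.04 in set A. It was above 1 in all 6 libraries, but fell to 0.996 with TPM recomputed on full transcript length, so the order of the subunits depends on how length is corrected.

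The correction for length matters most for the shortest transcripts. Effective length is the transcript length less the part that a fragment cannot start in, and for RpL41 it was 146 nt of 320 nt. With full length, RpL41 was at 11966 ± 462 TPM and still first among the 80 ribosomal protein genes above 1000 TPM. RpL39, with an effective length of 116 nt of 288 nt, was at 4392 TPM and moved from rank 3 to rank 48. RpL29, with 158 nt of 332 nt, was at 4426 TPM and moved from rank 6 to rank 46. The gene sta, with a longer transcript, was at 7014 TPM and rank 3. Across the 80 genes, whose transcripts run from 288 to 1400 nt with a median of 639 nt, Spearman's rho of mean TPM with length was -0.33, and 0.0957 with full length. These are correlations across genes in the same libraries, and genes are not independent replicates. The high ranks of RpL39 and RpL29 among the 80 genes therefore depend on the length correction, while the first rank of RpL41 among them does not. The level of RpL41 does depend on it, and its rank among all genes with full length is not given here.

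The 13 paralog sets differed widely in how they divided expression between copies. Of 14 lower copies, 7 were detected. In 3 sets a lower copy gave over 5% of the set's TPM, in 3 it gave about 2% to 3%, and in 7 under 0.1%.

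**Figure D2:**
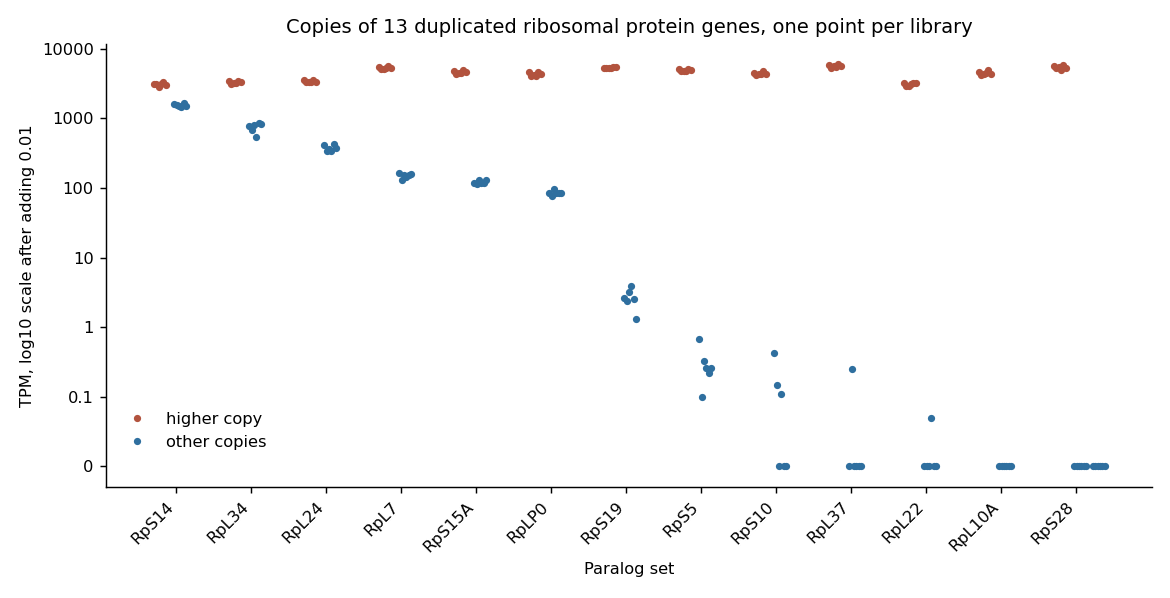
Level of each copy in the 13 paralog sets. Each point is 1 library, with the 3 of set B to the left of the 3 of set A, on a log10 scale after adding 0.01 TPM. The higher copies lie in 1 narrow band, and the lower copies descend from 1547 TPM for RpS14b to 0 for RpL10Aa and for both lower copies of RpS28.

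RpS14a and RpS14b encode the same protein of the small subunit and lie 220 nt apart on chromosome X, at 7933742 to 7934677 and 7934898 to 7935792. RpS14a had 3088, 3103 and 2858 TPM in set B and 3129, 3359 and 2964 TPM in set A. RpS14b had 1590.3, 1561 and 1494 TPM in set B and 1479, 1671 and 1487 TPM in set A. The copies did not overlap in any library, and RpS14b gave 34.0%, 33.5% and 34.3% of the set in set B and 32.1%, 33.2% and 33.4% in set A (33.4% ± 0.771). Copies this similar share reads, and the deposited posterior SD, which measures how uncertain the split is, was at most 0.0896% of the count for RpS14a and 0.201% for RpS14b. Neither copy alone reached the median of the families (4963 TPM), and their sum, 4630.3 ± 234 TPM, was close to it, at rank 48 of 79.

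The RpL34 copies lie on chromosome 3R, RpL34a at 26058420 to 26059267 and RpL34b at 9400237 to 9401226. RpL34b had 3383, 3109.9 and 3233 TPM in set B and 3235, 3440.1 and 3319 TPM in set A. RpL34a had 764, 676 and 793 TPM in set B and 544, 846 and 829.8 TPM in set A. RpL34a was lowest in replicate 1 of set A, where it gave 14.4% of the set, against at least 17.9% in the other libraries (18.4% ± 2.11 over all 6, and 19.1% ± 0.942 over the 5 without that library). The sum of the copies was 4029 ± 208 TPM, rank 70 of 79.

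RpL24-like, RpL7-like and RpLP0-like resemble proteins that in yeast act in ribosome assembly rather than in the finished ribosome, Rlp24, Rlp7 and Mrt4 in the same order. RpL24-like had 412, 336 and 368 TPM in set B and 338, 424 and 369.9 TPM in set A (375 ± 36.7 TPM), which was 9.85% ± 0.672 of its set. Its partner RpL24 was at 3422 ± 89.7 TPM. RpL7-like had 162, 132 and 153 TPM in set B and 144, 155 and 157 TPM in set A, 2.75% ± 0.178 of its set, next to 5312 ± 195 TPM for RpL7. RpLP0-like had 86.0, 77.6 and 95.6 TPM in set B and 85.3, 84.2 and 83.6 TPM in set A, 1.95% ± 0.177 of its set. All 3 lay far below their partners in every library and at levels that overlapped between sets. RpL7-like had the most uncertain counts of the 93 genes, with a posterior SD of up to 1.04%, and overlaps CG34164 on the same strand, while RpL24-like and RpLP0-like overlap Dtd and Jra on the other strand.

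RpS15Ab, a copy of RpS15Aa without introns, had 117, 116 and 130.4 TPM in set B and 117, 117 and 130.2 TPM in set A. This was 2.58% ± 0.200 of its set, next to 4592 ± 203 TPM for RpS15Aa, and replicate 3 was highest in each set.

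The lower copies of the other 7 sets were at or near 0. RpS19b, known from the fly germ line, was the only one of them detected, with 2.61, 2.35 and 3.24 TPM in set B and 3.93, 2.52 and 1.31 TPM in set A. This rested on 11 to 44 counts per library, and RpS19a was at 5332 ± 120 TPM, so RpS19b gave 0.0501% ± 0.0172 of its set. RpS5b, also known from the fly germ line, had 24 counts in all, 1 to 8 per library, and a mean of 0.298 ± 0.197 TPM beside 4893 ± 159 TPM for RpS5a. RpS10a had 5 counts in 3 libraries, at up to 0.41 TPM, beside 4411 ± 170.1 TPM for RpS10b. RpL37-2 and RpL22-like, a paralog known from the fly testis, had 1 count each over all 6 libraries, beside 5632 ± 256 TPM for RpL37-1 and 3084 ± 146 TPM for RpL22. RpL10Aa, RpS28a and RpS28-like had no count in any library. At the lowest depth, the 3 counts that a count of 0 allows correspond to 0.299 TPM for RpL10Aa, 1.36 TPM for RpS28a and 0.937 TPM for RpS28-like, while RpL10Ab was at 4475 ± 274 TPM and RpS28b at 5428 ± 290 TPM. These limits cover counting error only.

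Germline markers were low in the same libraries. Of 5 genes expressed in the germ line of both sexes, AGO3 was detected, at 4.95 TPM, and the other 4, vas, nanos, aub and bam, were below 1 TPM in every library. None of 6 testis markers was detected and 5 were below 1 TPM in every library, with dj and aly at 0, and the list summed to 0.92 to 1.56 TPM in set B and 0.16 to 1.78 TPM in set A. Of 5 ovary markers, BicD was detected, at 14.2 TPM, and the other 4 were below 1 TPM in every library, with Yp1 at 0.

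The paralog sets also differed from the other families in position. The gene with the highest level was on chromosome X in 8 of the 13 sets, against 6 of the 66 families with 1 gene. In the 7 sets whose lower copies were at or near 0, it was on X in 6, whereas none of the 8 lower copies of those sets was. Genes without an intron were RpLP2, RpS15Ab, RpS10a, RpL37-2, RpL10Aa and RpS28a, that is 5 of the 14 lower copies and 1 of the 79 leading genes. These are descriptions of the annotation, with no test.

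Levels differed between chromosome arms by their medians, with no test. The genes lie on chromosomes 2L (19), 2R (21), 3L (14), 3R (23), 4 (1, RpS3A at 4794 ± 185 TPM) and X (15). Among genes with a mean of at least 1000 TPM, the median was 5312 TPM on 2L, 5682 TPM on 2R, 4547 TPM on 3L, 4769.7 TPM on 3R and 4834 TPM for the 15 on X. Over the 64 on chromosomes 2 and 3 it was 5064 TPM. Introns of ribosomal protein genes often hold small nucleolar RNA genes, whose products guide the modification of ribosomal RNA. Here 29 genes, 16 of the large and 13 of the small subunit, held 76 such genes, led by RpS5a with 14 and RpS7 with 7. The hosts had a median of 4893 TPM, and the 51 other genes above 1000 TPM had a median of 4963 TPM. Of the 80 genes, 23 overlap an exon of a gene on the opposite strand, and counting was not stated to use strand.

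The genes varied little from library to library. The coefficient of variation (CV, the SD over the 6 libraries as a percent of the mean) had a median of 3.90% over the 80 genes and 4.04% over the 86 detected. It was 13.5% over the 64 other genes with a mean of at least 1000 TPM and 10.1% over all detected genes. These values are of TPM. With read counts scaled to library size by TMM factors, the median over the 86 was 5.72%. The value of the other genes on that scale is not given here. Of the 80 genes, 76 had a CV under 6%, against 12 of the 64 others, among which eEF5 (1.16%) and eEF1beta (3.06%), both of translation elongation, were lowest. Among the lowest of the ribosomal protein genes were RpL29 (2.01%), RpL23 (2.19%), RpS19a (2.24%) and RpS26 (2.37%). Counting error alone would give the 80 genes a median CV of 0.464%.

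**Figure D3:**
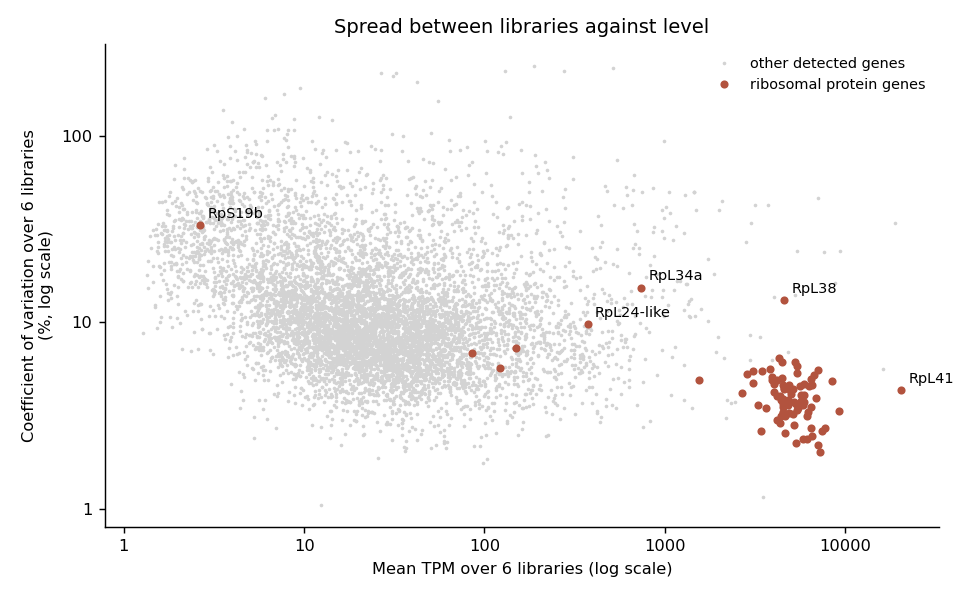
Coefficient of variation over 6 libraries against mean TPM for all detected genes, both on log scales. Ribosomal protein genes (red) form a cluster around a median of 4933 TPM and 3.90%, with RpL38 above it at 13.1%, and their lower copies lie to the left.

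Part of this variation was shared. When each library was divided by its median over the leading genes of the families, the median CV of the 80 genes was 2.16%, and 79 of the 80 were under 5%. RpL34b (0.566%), RpL19 (0.614%) and RpS4 (0.895%) kept the most constant proportion. Counting alone would give 0.598%, 0.392% and 0.362% in the same order, so the value of RpL34b is no larger than counting error. The largest values were 34.1% for RpS19b, of which counting would give 21.6%, then 13.6% for RpL34a, 12.0% for RpL38, 7.33% for RpLP0-like, 6.86% for RpS15Ab and 6.48% for RpL24-like. Of these only RpL38 is the sole gene of its family.

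**Figure D4:**
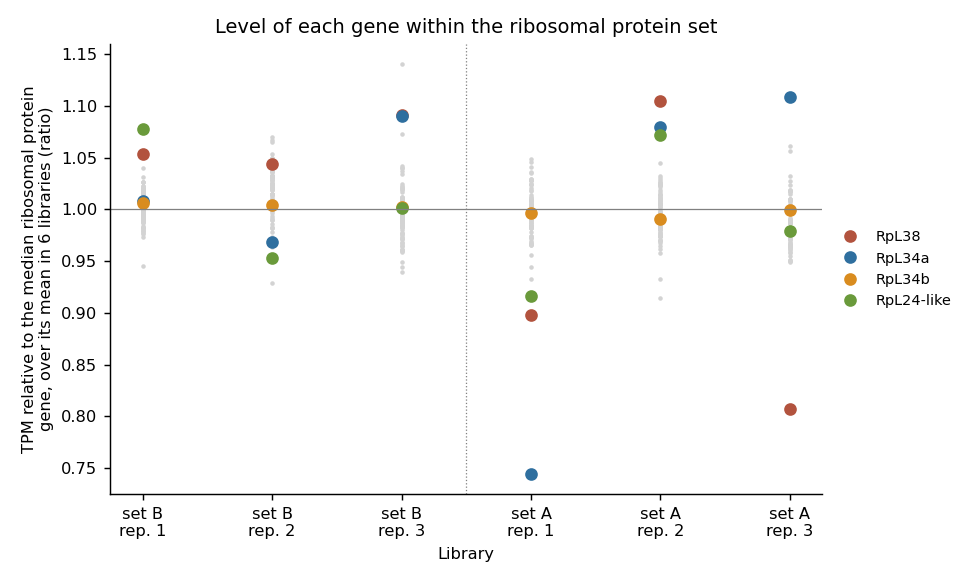
Level of each detected gene relative to the median ribosomal protein gene of the library, divided by its mean over the 6 libraries, with 1 point per gene and library and RpS19b left out. Grey points are the other genes. RpL38 was at 0.898 and 0.807 in replicates 1 and 3 of set A and RpL34a at 0.744 in replicate 1 of set A, while RpL34b stayed close to 1.

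RpL38 (chromosome 2R, 4515388 to 4516458) encodes a small protein of the large subunit, known in the mouse for the patterning defects of its mutants. It had 4950, 4518 and 4918 TPM in set B and 4072, 5362 and 3745 TPM in set A. Replicates 1 and 3 of set A were the lowest and replicate 2 of set A the highest, so the spread lay within set A and the sets overlapped. Relative to the median ribosomal protein gene, it was at 1.05, 1.04 and 1.09 in set B and 0.898, 1.11 and 0.807 in set A. Its CV of 13.1% was 6.98% without these 2 low libraries. Ring gland markers were highest in replicate 1 of set A (3053 TPM) and lowest in replicate 3 (986 TPM), which had the highest fat body markers, and the part of these tissues was not tested. RpL38 overlaps no annotated exon of another gene, and its posterior SD was 0.

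RpL34a was at 0.744 in replicate 1 of set A and between 0.968 and 1.11 in the other libraries on the same scale, while RpL34b stayed between 0.991 and 1.01. Without that library the CV of RpL34a was 8.58%, against 15.4% with it. The library had 3053 TPM of ring gland markers, the highest of the 6, whose part was not tested. Replicate 2 of set B had 2869 TPM of these markers and RpL34a at 0.968.

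Between the experimenters, no ribosomal protein gene passed the test. The quasi-likelihood test of edgeR, with Benjamini-Hochberg adjustment over 8491 genes, called 0% of all genes and 0 of the 86 ribosomal protein genes tested, and the other 7 were too low to be tested. At an unadjusted p under 0.05 it gave 4.16% of all genes and 0 of the 86. DESeq2 called 22 genes, 0.259% of all, and 0 of the 86. The smallest p among the 86 was 0.179 before adjustment and 0.9997 after it (edgeR).

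The changes were small and mostly of 1 sign. The log2 fold change of set B over set A was below 0 for 80 of the 86 genes, against 51.6% of all genes tested, and ran from -0.12 to 0.11 with a median standard error of 0.0795. Its median was -0.05, against -0.0045 over all genes. It was below 0 for 48 of 51 large subunit genes and 32 of 35 small subunit genes. With scaling to library size alone it was below 0 for 63 and above 0 for 23. Its median was then -0.0205, against 0.0257 over all genes. Without replicate 2 of set A, the library with the highest ribosomal protein share, the fold change was above 0 for 49 of 86. Its median was then 0.0018. The shared sign thus rests on that library. Since these genes vary together, their count below 0 does not measure 86 separate changes.

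**Figure D5:**
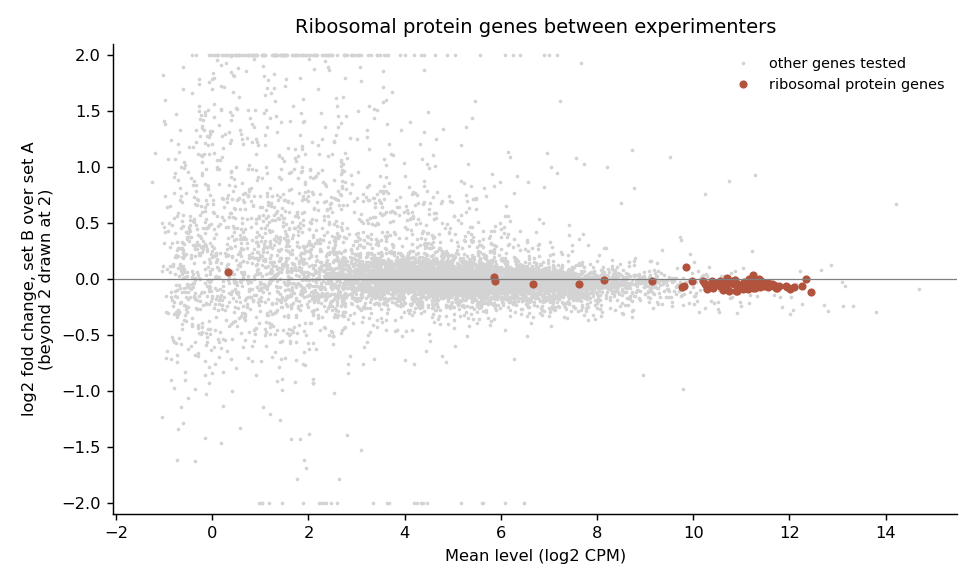
Log2 fold change of set B over set A from edgeR against mean level in log2 CPM (read counts scaled to library size), for all 8491 genes tested, with values beyond 2 in either direction drawn at 2. Ribosomal protein genes (red) lie between -0.12 and 0.11, mostly just below 0, while other genes spread more widely, above all at low level.

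The genes nearest to the threshold were these. RpL11, which joins RpL5 and 5S ribosomal RNA in the central protuberance, had 4055, 3910.5 and 3821 TPM in set B and 4168, 4296 and 4082 TPM in set A. The sets did not overlap, set B being lower, and the means were 3929 ± 118 TPM in set B and 4182 ± 107 TPM in set A (SD, n = 3 each). Here the log2 fold change was -0.11 (SE 0.0714). RpL7 was the only other gene without overlap on the scaled counts, with means of 5199 ± 188 TPM in set B and 5426 ± 144 TPM in set A and a log2 fold change of -0.08. In TPM, replicate 1 of set B (5404) was above replicates 1 and 3 of set A (5321 and 5366). No ribosomal protein gene had all set B libraries above all set A libraries. These counts of 2 and 0 of 86 stand beside 3.23% and 4.17% of all genes.

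After RpL11, the smallest p-values among genes lower in set B belonged to RpL3, near the catalytic centre of the large subunit (-0.12, SE 0.0795), RpL17 (-0.11), RpS9 (-0.11) and RpS16 (-0.10). Among genes higher in set B they belonged to RpL38, RpL21 (0.03), RpLP0-like (0.02), RpS19b (0.06, SE 0.458) and RpS28b (0.01). RpL38 averaged 4795 ± 241 TPM in set B and 4393 ± 855 TPM in set A (SD, n = 3 each), with a log2 fold change of 0.11 (SE 0.167). None of these differences passed the edgeR test.

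Genes that make or regulate ribosomes were far below the ribosomal proteins and did not pass the test between sets either. All 9 genes of the RNA polymerase I list, which transcribes ribosomal RNA, were detected, at a median of 23.0 TPM, led by the initiation factor gene Tif-IA (59.9 ± 5.29 TPM) and the subunit gene Polr1D (47.7 ± 5.30 TPM). All 33 genes of ribosome biogenesis were detected, at a median of 44.0 TPM, led by Non1 (959 ± 130.5 TPM), a GTPase of large subunit assembly, and the nucleoplasmin gene Nlp (574 ± 32.9 TPM). All 12 regulators were detected, at a median of 47.7 TPM, led by Thor (232 ± 34.5 TPM), the translation repressor 4E-BP, and Xrp1 (169 ± 17.7 TPM), known for its rise in fly ribosomal protein mutants. The 5 genes of ribosome-bound factors stood in the range of the ribosomal proteins, at a median of 3915 TPM, led by eEF1alpha1 (16224 ± 913 TPM), which delivers aminoacyl-tRNA, and Rack1 (5507 ± 253 TPM), a scaffold on the small subunit. In all 4 lists edgeR called 0 genes, and none had an unadjusted p under 0.05. Their median log2 fold changes of set B over set A were 0.03, 0.01, -0.04 and -0.05 in the order given, and -0.0045 over all genes. Median CV was 12.6% for RNA polymerase I, 8.50% for biogenesis, 8.07% for regulators and 5.63% for ribosome-bound factors, each above the 3.90% of the 80 ribosomal protein genes. Apart from the ribosome-bound factors, these lists lay at far lower levels than the 80 genes. The median CV over all detected genes was 10.1%.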

How the data were processed

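Polyadenylated RNA of 6 whole lymph gland samples was purified on columns and made into libraries with a stranded kit, per the labels' protocols. The submitters' processing notes name CASAVA 1.8.2, Trimmomatic 0.35, STAR 2.7.1a and RSEM 1.2.28 and the build BDGP6; the annotation release and the use of strand in counting are not given in the sources used here. The deposited expected counts are RSEM's estimated reads per gene, not normalized, and their posterior SD is above 0 where reads fit several genes. The deposited TPM values correct for effective length and have the same sum in every library, so a level is relative to all other transcripts. Deposited FPKM was not used.

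Gene IDs were matched to Ensembl release 115 (BDGP6.54), 17710 by gene ID and 56 through transcripts, with 41 unmatched. All 93 ribosomal protein genes matched, and positions, counted from 1, are from that release. Paralog sets are genes that share a symbol stem. Markers and related lists are used under current symbols. Ribosomal protein genes, lists and tests were chosen with earlier results of these data known. Named with values are the 10 highest, the 5 lowest detected without a paralog, all paralogs, the stalk and ubiquitin fusion genes, sta, the 5 highest and 5 lowest CVs, and the 5 smallest p-values per direction, with the 2 highest genes of each list. Some genes that the rule names are not reported here. RpS6 and RpS21 are outside that rule, as are gene pairs that overlap.

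Expected counts were rounded, filtered by filterByExpr (8491 genes), scaled by TMM and tested with edgeR 4.0.16 (quasi-likelihood, R 4.3.3) at an adjusted p of 0.05. The standard error came from the estimate and its F statistic. The p-values measure the spread between libraries, which the design text calls biological replicates. Whatever differed along with the experimenter cannot be told apart from it. Single measures were not tested, since 3 libraries against 3 cannot give an exact permutation p below 0.1. DESeq2 1.42.0 and limma 3.58.1 on log2(TPM + 1) were alternatives, and the edgeR step was tested on simulated data. Other steps used Python 3.11.15, numpy 2.4.6, pandas 2.3.3, scipy 1.17.1 and matplotlib 3.10.9.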

Additional observations from a re-analysis of the deposited data

Results flagged for a closer look

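RpS26, a protein of the small subunit, had 5900.2 TPM in replicate 3 of set B and 6163 to 6319 TPM in the other 5 libraries. The gap between the lowest library and the next was 0.627 of the whole range, just past the critical value of Dixon's outlier test for 6 samples. It was the only one of 94 values examined to pass, and about 4.7 would pass by chance at 1 in 20. The marker sums of salivary gland and fat body, in which 1 library also stood far apart, were not among these values. Neither were RpL37-2 and RpS10a, with 1 and 5 counts in all. RpS26 had a CV of 2.37%, among the lowest of the ribosomal protein genes.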

How the results depend on the processing

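No ribosomal protein gene and no gene of the related lists was called under any alternative. The share of summed TPM was 38.6% with full transcript length, 18.6% in expected counts and 40.6% without RpL41 (chosen after seeing the data). The ratio of large to small subunit was 0.996 with full length. The median CV of the detected ribosomal protein genes was 4.04%. It was 5.72% in TMM-scaled CPM and 2.21% scaled to the median ribosomal protein gene. Without replicate 1 of set A and replicate 2 of set B it was 3.55%. This setting and the scaling to the median gene were added after seeing the data. Leaving out 1 library at a time gave 3.45% to 4.40%, with 3.64% without replicate 2 of set B and 3.45% without replicate 2 of set A. The cause was not tested. The median log2 fold change ran from -0.0856 to 0.0018 over the same libraries left out. RpS14b gave 30.9% of its set in expected counts. Detected ribosomal protein genes numbered 85 at 5 TPM and 86 at 10 counts. Deviations of same-numbered libraries correlated at -0.208, -0.357 and 0.384. With such mixed signs from so few libraries, this cannot decide whether replicate numbers pair the libraries. With a replicate block 0 genes were called and the median log2 fold change was -0.051. RpL10Aa, RpS28a and RpS28-like are limited by depth to the values given for a count of 0.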
